A study of Prunus avium with 18 samples.

Results

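In flower buds of sweet cherry (Prunus avium), 152 of 48133 annotated genes (0.316%) were read on March 12 and hardly at all at any other sampled date. They were chosen by their counts: at least 10 reads in each of the 3 March 12 libraries and at most 1 read in each of the 15 other libraries. Together they held 99230 reads in replicate 1 of March 12, 70818 in replicate 2 and 103614 in replicate 3, against 128 reads in all 15 other libraries. Among them were 7 candidate genes that the study had listed for transport between cells and for the cell wall. These were the beta-1,3-glucanase GH17_39, the entries GH-like_25 and homeobox-3, 3 pectinesterases and the pectinesterase inhibitor entry PECTIN_INHIB_like_3. The descriptions of GH-like_25, homeobox-3 and PECTIN_INHIB_like_3 conflict. Since the difference between March 12 and the other dates chose the genes, it is described here without a test.

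Buds of 'Fertard', a late flowering cultivar with a high need for chilling, grafted on Maxma Delbard 14 and grown in an orchard with no treatment named in the labels, were sampled at 6 dates from October 2017 to March 2018, with 3 biological replicates per date from different trees. The groups were October 17 (dormancy onset), December 8, January 3, January 15 and February 12 (endodormancy), and March 12, which the study groups as ecodormancy although it places dormancy release in that season later. For the December libraries the labels state December 17, 2012, and the date of the design text, December 8, is used here. Whole buds were ground, so fewer cells of a type and less RNA per cell cannot be told apart. Total counts lay between 10095600 and 21023379 per library and between 10095600 and 12186256 on March 12, and all pairs of replicates differed by more than counting noise (chi-square per degree of freedom 1.85 to 22.4). The sources used here pair gene identifiers with names for the candidate list alone, so the bud label could not be checked against floral markers. The list of xylem formation genes, the other tissue that could be followed, had a summed level of 684 to 700 CPM (counts scaled to 1000000 of the normalized library, 24 genes, 4 of them at 0 reads) on March 12 and of 516 to 752 CPM at the other dates.

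Endodormancy is a state in which buds do not grow even in warm conditions, and ecodormancy is the state after it, in which cold alone holds growth back. In sweet cherry the floral organs complete their growth in the bud between dormancy and bloom. Beta-1,3-glucanases of glycosyl hydrolase family 17 (GH17) cut callose, the glucan that narrows plasmodesmata and that also encloses young pollen cells in the anther. Pectinesterases remove methyl groups from wall pectin, which changes how stiff the wall is, and pectinesterase inhibitors block them.

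Each of the 152 genes had more reads in every March 12 library than in any earlier one (plot of raw counts by library). Their reads numbered 39 on October 17 (0.955 in 1000000 reads), each value over 3 libraries. December 8 had 19 of them (0.504 in 1000000), January 3 had 18 (0.440), January 15 had 28 (0.583) and February 12 had 24 (0.634), against 8198 in 1000000 reads on March 12. No read at all fell on 83 of the genes outside March 12. Of the other 69 genes, 35 had 1 read, 27 had 2 or 3 and 7 had more, up to 7 reads over the 15 libraries. The stray reads did not gather on the genes with most reads on March 12: the 51 genes with the most had 49 of them, the next 51 genes had 55 and the last 50 genes had 24. Each of the 15 libraries could show at most 1 read per gene by the rule, so these figures describe how sparse the reads were and test nothing.

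**Figure D1:**
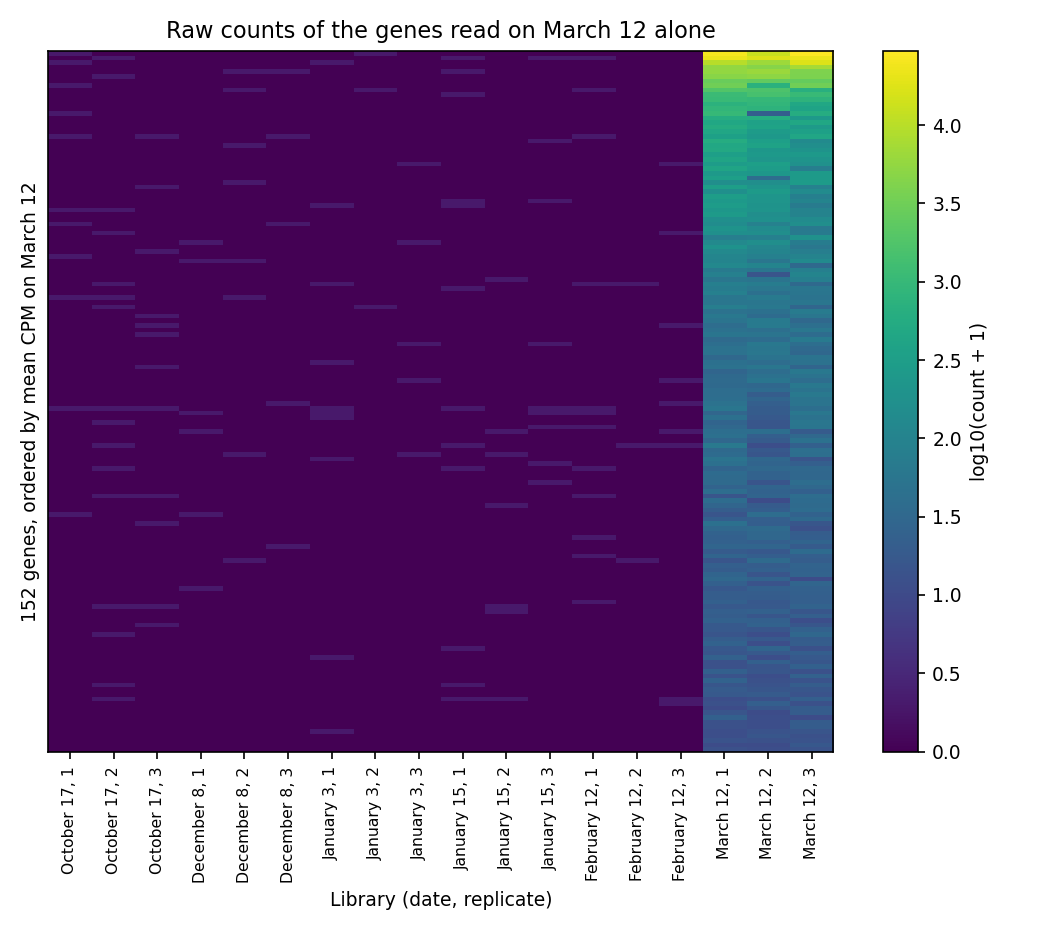
Raw counts, as log10(count + 1), of the 152 genes (rows, ordered by mean CPM on March 12) in the 18 libraries (columns, by date and replicate). The 3 March 12 columns are filled from 10 reads upwards, and the 15 other columns hold scattered single reads, 128 in all.

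March 12 was the date with nearly all such genes. The same rule, applied with each other date in the place of March 12, found 2 genes for October 17 (PAV01g0070481 and PAV05g0228961) and 0 for December 8, January 3, January 15 and February 12. With at least 5 reads on the date and at most 2 elsewhere, 348 genes were found for March 12, 14 for October 17, 4 for February 12 and 0 for the 3 dates between December 8 and January 15. The dates from December 8 to February 12 all lay in endodormancy, so a gene read throughout that stage fails the rule at each of them. October 17 and March 12 were each the only date of their stage. The 152 genes made up 0.682% of the 22298 genes with at least 10 reads in each March 12 library.

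Leaving 1 date out of the rule showed at which dates further genes had reads. Without the limit on October 17, 33 genes were added, and 5 of these had at least 10 reads in each October library. Among them PAV08g0383171 had 27, 30 and 38 reads on October 17 and 29, 13 and 16 on March 12, and PAV01g0082121 had 17, 40 and 39 reads on October 17 and 35, 26 and 13 on March 12. In both genes the reads of October and March overlapped while the winter libraries stayed at 0 or 1. Without the limit on February 12, 19 genes were added, none with at least 10 reads in each February library and none with more than 5 in any. In PAV01g0028771, 3, 2 and 2 reads on February 12 stood against 11837, 13866 and 8235 on March 12. December 8 added 5 genes, January 3 added 5 and January 15 added 16, none with at least 10 reads in each library. PAV04g0189771, with 0, 20 and 4 reads on January 3, had the highest of these counts, in 1 library.

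As shares of the reads, the 152 genes spanned more than 3 orders of magnitude. Their mean on March 12, in CPM, ran from 1.05 to 2008 with a median of 3.55 and quartiles of 1.94 and 11.5. Since CPM is not divided by gene length, it ranks genes by reads and not by transcripts. Only 10 genes were over 100 CPM and 43 over 10 CPM, while 42 were under 2 CPM. The 12 genes with the most reads held 87.0% of all reads of the 152 genes, and the first 3 held 59.5%. Summed over the 152 genes the level was 7926 CPM in replicate 1, 6134 CPM in replicate 2 and 9879 CPM in replicate 3. Without the first 3 genes the sums were 3318, 3038 and 3259 CPM, so most of the distance between the replicates' sums lay in those 3 genes.

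The gene with the most reads was PAV07g0351591 on chromosome 7, with 26085, 12697 and 29792 reads in March 12 replicates 1, 2 and 3 (2008 ± 873 CPM, SD, n = 3) and 2 reads elsewhere. Replicate 2 was low in it. PAV04g0197281 on chromosome 4 had 21607, 16347 and 22124 reads (1750 ± 347 CPM, SD, n = 3) and 4 elsewhere. PAV05g0251981 on chromosome 5 had 9998, 6694 and 17518 reads (1016 ± 577 CPM, SD, n = 3) and 2 elsewhere, with replicate 3 standing well above both others. The sources used here give no name to any of the 3. PAV01g0017351 followed with 5527, 4651 and 7544 reads and 0 elsewhere, and PAV04g0186421 with 5655, 6208 and 4019 reads and 3 elsewhere. The replicates of PAV03g0156941 lay close together, at 2838, 2509 and 2565 reads (230 ± 13.8 CPM, SD, n = 3), and it had no read at any other date. The reverse held for PAV08g0383701, whose 3198, 710 and 3160 reads put replicate 2 far below the others. PAV01g0042531 had 1789, 1678 and 669 reads, with replicate 3 the low one. The last of the unnamed genes among the first 12, PAV01g0050291 and PAV05g0248361, had 1118, 1492 and 1033 reads and 744, 888 and 471 reads. At the other end of the range, PAV02g0091281 had 12, 11 and 13 reads, PAV07g0352751 had 10, 10 and 16, and PAV02g0107301 had 11, 13 and 14.

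**Figure D2:**
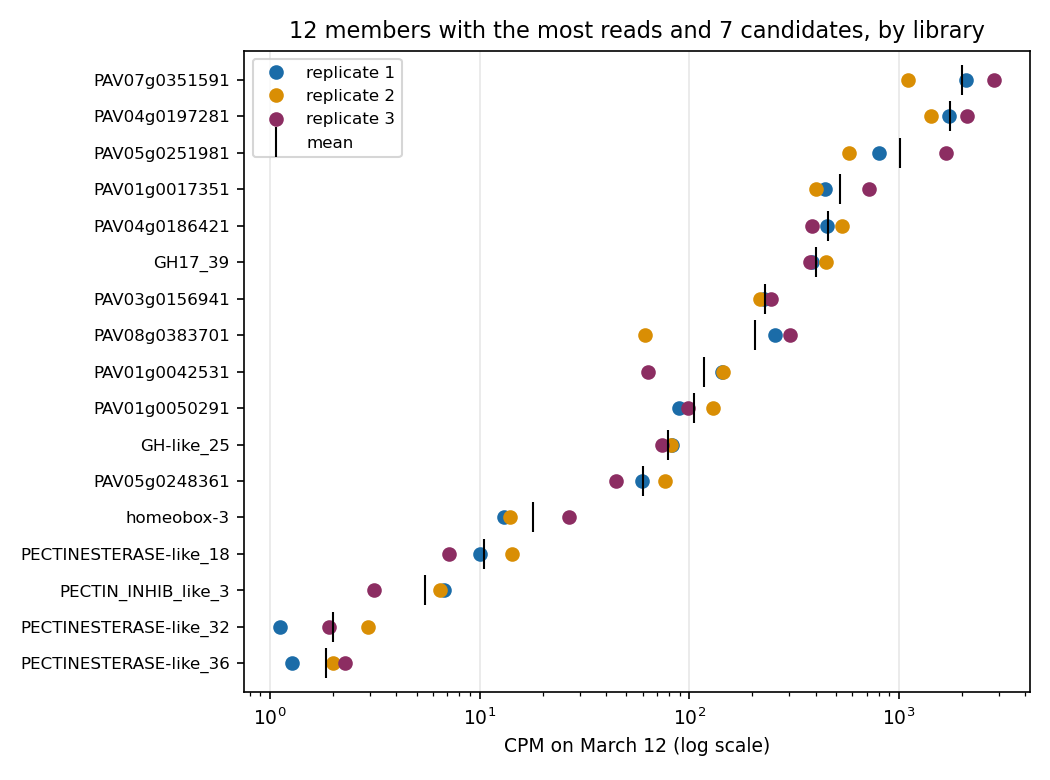
CPM on March 12 (log axis) of the 12 genes with the most reads and the 7 candidates, of which 2 are in both sets, with 1 point per replicate and a bar at the mean. The replicates of GH-like_25 and PAV03g0156941 nearly coincide, replicate 2 is far to the left in PAV08g0383701 and replicate 3 in PAV01g0042531.

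The size of the step can be given only as a bound for genes without reads elsewhere. Taking 3 reads over the 15 other libraries together as the floor (0.0147 CPM), the 83 genes without reads elsewhere were at least 71.4-fold to at least 35430-fold higher on March 12, with a median bound of 189-fold. In the 69 genes with stray reads the ratio of March 12 to the other libraries together ran from 68.2 to 204744, with a median of 520. Bounds and ratios follow the depth of the March reads, since the denominator is always a handful of reads.

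GH17_39 (PAV01g0026401, chromosome 1), a probable glucan endo-1,3-beta-glucosidase of the GH17 family, was the candidate with the most reads. It had 4824, 5204 and 3932 reads on March 12 (404 ± 41.1 CPM, SD, n = 3), the sixth most among the 152 genes, and 1 read elsewhere, in replicate 2 of October 17. That is a ratio of 82318, a description only, since the rule bounded the reads elsewhere. Its replicates differed by less than those of most of the 152 genes (coefficient of variation 10.2%). GH-like_25 (PAV03g0174001, chromosome 3) had 1032, 947 and 775 reads (79.4 ± 4.81 CPM, SD, n = 3) and none elsewhere, at least 5401-fold higher on March 12. The candidate list describes it as an endo-1,3(4)-beta-glucanase by orthology and as a homeodomain-like protein by its closest Arabidopsis match, so its role is not settled. The entry homeobox-3 (PAV06g0284871, chromosome 6) had 163, 161 and 281 reads (17.9 ± 7.70 CPM, SD, n = 3) and 1 read in replicate 2 of December 8, with replicate 3 above the others. Its descriptions differ likewise, a homeobox protein by the Arabidopsis match and a lysosomal beta glucosidase-like protein by orthology. Another source of the list gives a glycosylase. Whether the sources disagree or a description in the list belongs to another gene could not be checked, for these entries and for PECTIN_INHIB_like_3.

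The pectin genes among the 152 had fewer reads. PECTINESTERASE-like_18 (PAV07g0349011, chromosome 7) had 125, 164 and 75 reads (10.4 ± 3.55 CPM, SD, n = 3) and 2 reads elsewhere. PECTINESTERASE-like_32 (PAV04g0219001, chromosome 4) had 14, 34 and 20 reads (1.99 ± 0.916 CPM, SD, n = 3) and PECTINESTERASE-like_36 (PAV03g0144981, chromosome 3) 16, 23 and 24 reads (1.85 ± 0.519 CPM, SD, n = 3), with 2 and 1 reads elsewhere. All 3 are pectin methylesterases by 2 sources of the list and pectin lyase-like proteins by the third. PECTIN_INHIB_like_3 (PAV01g0014921, chromosome 1) is a pectinesterase inhibitor by 2 sources of the list, orthology among them, and the protein myb domain protein 106 by its Arabidopsis match. It had 85, 75 and 33 reads (5.48 ± 2.02 CPM, SD, n = 3), with replicate 3 low, and 4 reads elsewhere on October 17, January 3 and February 12. A further candidate, GH-like_28 (PAV01g0028621), missed the rule by 1 read, with 16, 9 and 24 reads on March 12 and 0 elsewhere.

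The families of these candidates were followed without the members themselves, in a test of all genes with enough reads (edgeR's quasi-likelihood test, in which a call needed both a log2 fold change beyond 1 in size and a Benjamini-Hochberg adjusted p under 0.05). Of 24743 genes tested, 15.3% were called higher and 9.69% lower on March 12 than on February 12, and 13.3% higher and 8.1% lower than on October 17. Of the 152 genes 150 entered this test, and all of these were called higher than on February 12, which the rule had fixed. The filter kept genes with enough reads at any date. A gene hardly read outside March 12 thus entered through its March 12 reads and could hardly be called other than higher. This holds for PECTINESTERASE-like_19, PECTINESTERASE-like_34, GH-like_17 and GH-like_39 below, whose p-values add nothing to their reads. The shares of families and neighbours hold such genes, as does that of all genes, and are descriptions. Of the 53 other pectinesterases 16 were tested, and 10 were higher and 0 lower on March 12 than on February 12 (median log2 fold change 2.31). PECTINESTERASE-like_19 (PAV07g0348971), which lies 4 gene models before PECTINESTERASE-like_18 in the numbering, had 314, 193 and 61 reads on March 12 (15.9 ± 9.66 CPM, SD, n = 3) and 5 reads elsewhere. Its log2 fold change, given here and below with its standard error, was 8.01 ± 0.78 (edgeR adjusted p = 9.26e-07), and it missed the rule because its highest count elsewhere was 2. Replicate 3 was low in it and in PECTINESTERASE-like_18. PECTINESTERASE-like_34 (PAV03g0166831) was also higher, with 102, 45 and 68 reads (log2 fold change 7.44 ± 0.83, edgeR adjusted p = 3.74e-06).

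Of the 41 other GH17 genes 32 were tested, with 16 higher and 1 lower on March 12 than on February 12 (median log2 fold change 0.98). GH17_9 (PAV07g0353161) had 237, 191 and 66 reads on March 12 and was higher (log2 fold change 4.72 ± 0.39, edgeR adjusted p = 1.66e-08). GH-17-like_2 (PAV01g0039141) was higher too, with 315, 352 and 140 reads (log2 fold change 4.31 ± 0.40, edgeR adjusted p = 6.67e-08). GH17_22 (PAV04g0221611) was the 1 lower gene, at 187 ± 30.6 CPM (SD, n = 3) on March 12 after a mean of 1211 CPM on February 12 (log2 fold change -2.69 ± 0.35, edgeR adjusted p = 3.92e-06). The GH17 family thus held GH17_39, with 1 read before March, beside a gene with its highest mean on February 12. Of 17 GH-like genes tested, 5 were higher and 2 lower. This count depended on the filter, since leaving out any library of another date or replicate 2 of March 12, by which up to 22 of these genes passed it, gave 8 or 9 higher. GH-like_17 (PAV02g0127071), with 201, 131 and 31 reads and 7 elsewhere, had the largest change in this group (log2 fold change 10.08 ± 1.09, edgeR adjusted p = 2.76e-06), followed by GH-like_39 (PAV08g0392541) with 13, 24 and 25 reads and 8 elsewhere (log2 fold change 7.60 ± 1.02, edgeR adjusted p = 2.28e-05).

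Of 16 pectinesterase inhibitors tested, 6 were higher and 2 lower on March 12 than on February 12. PECTIN_INHIB_like_17 (PAV02g0104801) had the largest change but few reads, 1, 2 and 8 on March 12 (log2 fold change 5.14 ± 1.52, edgeR adjusted p = 0.00885), and its mean on October 17, 3.04 CPM, was above that on March 12, 0.339 CPM. PECTIN_INHIB_6 (PAV08g0401671) was higher, with 155, 126 and 116 reads (log2 fold change 3.01 ± 0.27, edgeR adjusted p = 4.00e-08), and PECTIN_INHIB_4 (PAV02g0131731) was lower, with 11, 5 and 20 reads (log2 fold change -2.25 ± 0.42, edgeR adjusted p = 0.000167). Of the beta glucosidases, which had no member among the 152 genes, 42 were tested, with 11 higher and 8 lower. Of the callose synthases, which make the callose that GH17 enzymes cut, 25 were tested, with 1 higher and 0 lower, and none was among the 152 genes. The callose-binding proteins of plasmodesmata also had no member, and 8 of 11 tested were higher and 0 lower. Over all candidates that were not members, 91 of 287 tested (31.7%) were higher and 27 lower, with a median log2 fold change of 0.38. Another 135 of these candidates had no read in any library.

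**Figure D3:**
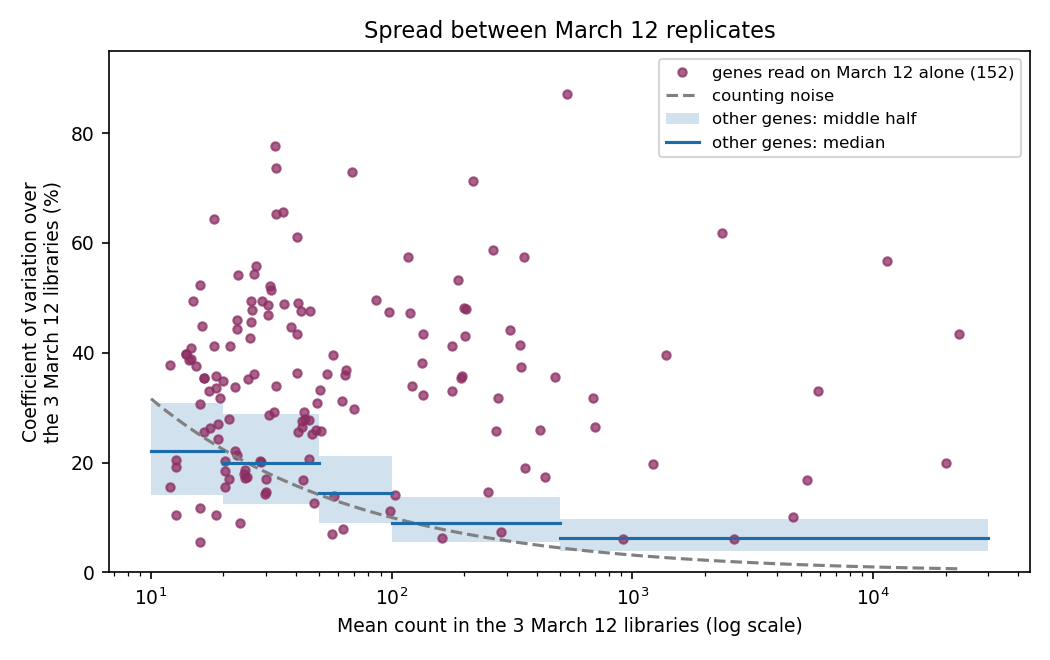
Coefficient of variation over the 3 March 12 libraries (%) against the mean count (log axis). Points are the 152 genes, the shaded band and line give the quartiles and the median of the other genes with at least 10 reads in each March 12 library, and the dashed line is the spread that counting alone gives. Most points lie above the band at every count, and from 500 reads upwards their median is 29.2% against 6.28%.

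The March 12 replicates differed more in these genes than in other genes with as many reads. The coefficient of variation of the 152 genes had a median of 34.0% (range 5.61% to 87.0%). In 129 of them it was above counting noise. All pairs of replicates also differed by more than counting noise, and no such share was taken for the other genes. This count therefore does not set the 152 genes apart. For genes with a mean of 10 to 20 reads the median was 34.5% in the 30 genes of the set and 22.1% in the other genes with at least 10 reads in each March 12 library. At 100 to 500 reads it was 36.5% against 9.04% (30 genes of the set), and at 500 or more reads 29.2% against 6.28% (14 genes of the set), where counting alone gave 2.00%. The genes that were called higher on March 12 than on February 12 and were not in the set lay between them at 500 or more reads, at 8.88%. Without replicate 3 the median of the set fell to 17.97% and that of the other genes to 7.80%, and at 500 or more reads to 13.1% against 4.94%. Without replicate 3 the set was below the other genes at 10 to 20 reads (14.5% against 17.6%) and at 50 to 100 reads (10.3% against 11.8%), so there the wider spread rested on replicate 3. The requirement of 10 reads in each library cuts off low values near that limit, and the comparison was not tested.

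Replicate 3 departed in both directions. It was more than 2-fold above the geometric mean of replicates 1 and 2 in 26 of the 152 genes (17.1%) and more than 2-fold below it in 17 (11.2%). In the 22146 other genes with at least 10 reads in each March 12 library these shares were 1.08% and 0.686%, and in the 3489 of those that were called higher on March 12 than on February 12 they were 2.32% and 2.92%. The genes in which replicate 3 was low had a median of the mean counts of 135 reads, against 33 reads where it was high. The minimum of 10 reads in each library leaves little room for a low replicate in genes with few reads. Of the 59 genes with a mean of at least 50 reads, 14 had a low (23.7%) and 7 a high replicate 3 (11.9%). Among 17888 other genes with such means these shares were 0.548% and 0.632%. Chromosome 2, which held 29 of the 152 genes, carried 7 of the 17 genes with a low replicate 3 and 4 of the 26 with a high one. PAV02g0126461 (412, 298 and 81 reads) had the largest departure downwards. Of the 17 genes 8, and of the 26 genes 2, had another of the 152 genes within 10 gene models. Such genes may not be separate observations. Replicate 3 had the highest level in 76 genes, replicate 1 in 41 and replicate 2 in 35.

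Replicate 2 departed mostly downwards. It was more than 2-fold below the geometric mean of replicates 1 and 3 in 20 genes (13.2%) and more than 2-fold above it in 2 genes (1.32%), against 0.700% and 0.199% of the other genes. PAV01g0065371 had the widest spread of the set, with 992, 21 and 585 reads (coefficient of variation 87.0%). PAV01g0037171 had 340, 39 and 277 reads and PAV06g0306701 had 88, 14 and 103, both named here for their low replicate 2. Of the 26 genes with a high replicate 3, 14 also had a low replicate 2. PAV04g0185611, with 64, 11 and 23 reads, and PAV02g0121181, with 27, 15 and 57, also had wide spreads, while PAV06g0281841, with 18, 15 and 15 reads, had the narrowest at 5.61%. What sets replicates 2 and 3 apart in these genes was not tested.

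The identifiers number the gene models along each chromosome, so neighbours could be read from the numbering, without coordinates. The 152 genes were spread over all 8 chromosomes and the unplaced contigs, with 34 of 8381 gene models on chromosome 1 and 29 of 5430 on chromosome 2. Per 1000 gene models there were 5.34 on chromosome 2, 1.63 on chromosome 6, 0.889 on unplaced contigs and 3.16 overall. Per 1000 gene models with a read these values were 7.36, 2.09, 1.83 and 4.36. Another of the 152 genes lay within 10 gene models for 36 of them (23.7%), in 16 pairs and 1 group of 4. How many would lie so close without any grouping was not tested. The log2 ratio of replicate 3 to the other replicates had the same sign throughout in 14 of these 17 groups, negative in 8 and positive in 6, some of them with a value near 0 (-0.03 and 0.10 in the genes closest to it). The pairs can also share a sign by chance, and this count was not tested.

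The group of 4 lay within 7 gene models on chromosome 2. PAV02g0115441 had 263, 214 and 104 reads, PAV02g0115451 had 481, 384 and 162, PAV02g0115491 had 197, 145 and 63, and PAV02g0115501 had 305, 211 and 86. Replicate 3 was the lowest in all 4, by 0.99 to 1.36 on the log2 scale. The read models beside and between them had fewer reads and shared the low replicate 3, PAV02g0115471 with 20, 22 and 8 and PAV02g0115431 with 24, 24 and 8. The next model, PAV02g0115511, had 733, 576 and 263 reads (44.5 ± 17.4 CPM, SD, n = 3) and 23 reads elsewhere, up to 4 in a library. PAV02g0115511 thus entered the test through its March 12 reads. Its call as higher than on February 12 (log2 fold change 8.07 ± 0.43) adds nothing to these reads. The stretch ended at PAV02g0115521, with 2852, 2542 and 2369 reads and no call between these dates (log2 fold change 0.04 ± 0.05, edgeR adjusted p = 0.558). The sources used here give no strand setting for the counting and no coordinates, so overlapping or duplicated neighbours in such a stretch cannot be told apart from separate genes.

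**Figure D4:**
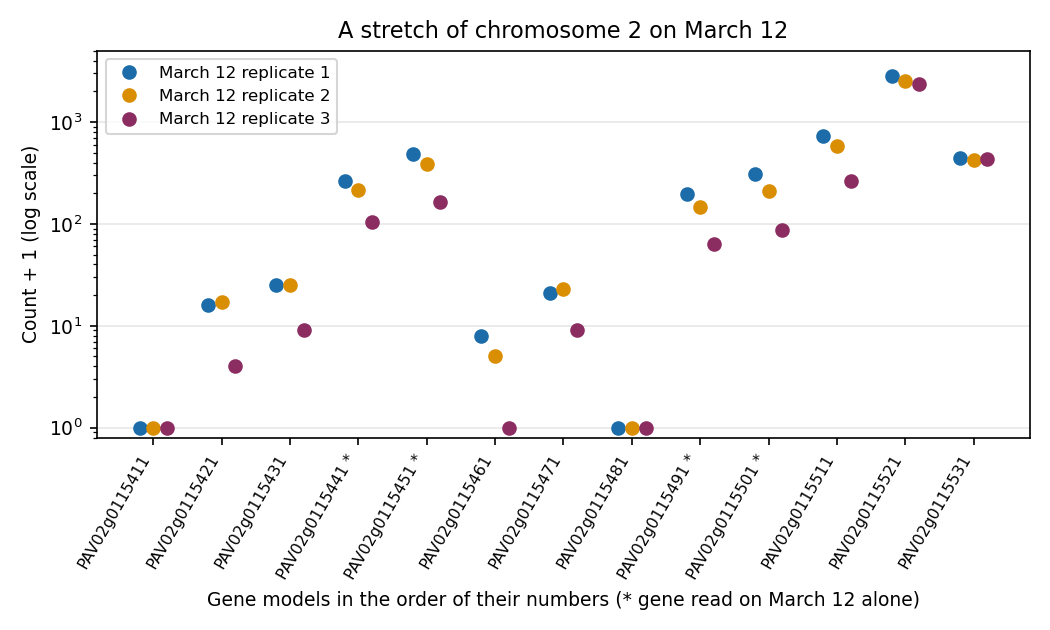
Reads per gene model, as count + 1 on a log axis, in the 3 March 12 libraries along 13 consecutive gene models of chromosome 2, in the order of their numbers. The 4 models marked with an asterisk are genes read on March 12 alone, and replicate 3 is lowest in them and in their read neighbours up to PAV02g0115511, but close to the others in PAV02g0115521 and PAV02g0115531.

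On chromosome 5, PAV05g0248351 (51, 68 and 32 reads) stood directly before PAV05g0248361 (744, 888 and 471 reads), and both were highest in replicate 2 and lowest in replicate 3. The models on either side were not called between March 12 and February 12, PAV05g0248341 at a mean of 26.8 CPM on March 12 and 30.4 CPM on February 12, and PAV05g0248371 at 5.50 and 3.71 CPM. On chromosome 4, PAV04g0186331 (27, 21 and 22 reads) and PAV04g0186421 lay 9 models apart. Of the tested genes between them none was called. PAV04g0186341, also between them, was not tested and had 8, 13 and 11 reads on March 12 and 0 elsewhere. After the pair, PAV04g0186431 and PAV04g0186441 were called higher than on February 12 (log2 fold changes 2.52 ± 0.55 and 1.93 ± 0.09). Before it, PAV04g0186311 was called higher (1.23 ± 0.11) and PAV04g0186321 was not called. On chromosome 1, PAV01g0004461 (170, 164 and 67 reads) and PAV01g0004481 (233, 204 and 99 reads) stood within a run of cellulose synthase-like genes, named here after their values were seen. CELLULOSE SYNTHASE-like G1_2 (PAV01g0004451), directly before them, went from a mean of 80.9 CPM on February 12 to 3.51 CPM on March 12, with 44, 16 and 59 reads there (log2 fold change -4.54 ± 0.24, edgeR adjusted p = 5.34e-11). CELLULOSE SYNTHASE-like G2_2 (PAV01g0004501), 2 models after them, was lower as well (log2 fold change -4.16 ± 0.68, edgeR adjusted p = 4.61e-05). CELLULOSE SYNTHASE-like G2_3 (PAV01g0004471), between them, was not called.

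Directly beside the 152 genes stood 279 other gene models. Of these 52 had no read in any library (18.6%, against 27.7% of all gene models outside the set) and 154 were tested. The share outside the set takes in the unplaced contigs, where 3834 of 7871 models had a read and 7 of the 152 genes lay. Of the tested neighbours 33 (21.4%) were higher and 12 (7.79%) lower on March 12 than on February 12, beside 14.8% and 9.75% of all tested genes outside the set (15.3% and 9.69% with it), and their median log2 fold change was 0.23. Within 5 models on either side, 153 of 810 tested (18.9%) were higher and 72 lower. By position the share that was higher ran between 3.37% and 25.3% over the 20 positions up to 10 models away, without a steady decline. Most tested neighbours were thus not called in either direction, and only 3 of the 152 genes had a gene that was higher or a fellow member on both sides.

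**Figure D5:**
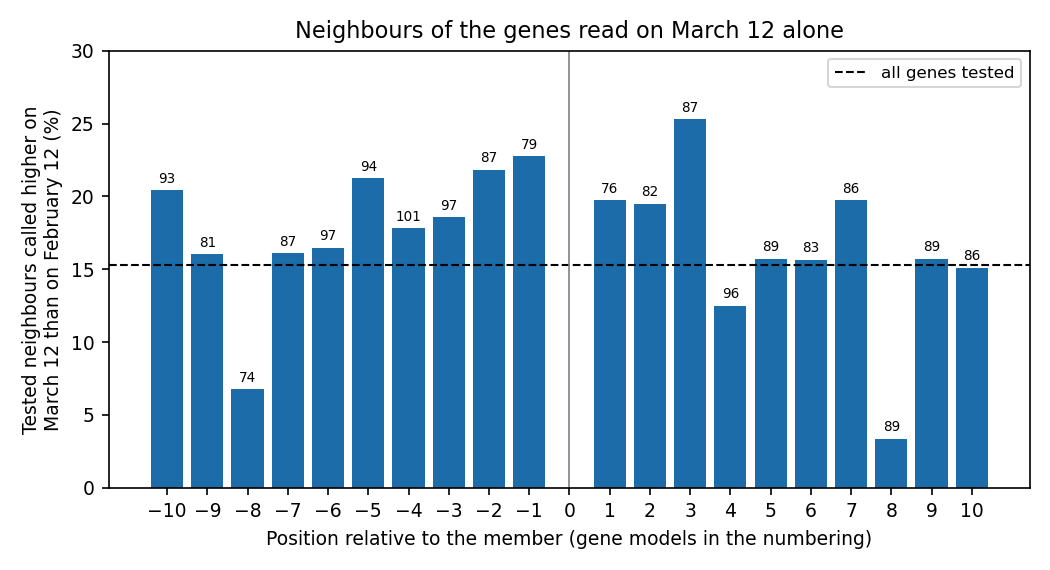
Share of tested neighbours that were higher on March 12 than on February 12 (%), by position relative to each of the 152 genes in the numbering, with the number tested above each bar. The dashed line is the share of all genes tested, 15.3%, and the bars lie on both sides of it, from 3.37% to 25.3%.

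The neighbours that were higher included genes nearly as silent elsewhere, which entered the test through their March 12 reads. PAV01g0019501 had 836, 648 and 1299 reads on March 12 and 11 elsewhere (log2 fold change 13.09 ± 0.72, edgeR adjusted p = 4.53e-10), and PAV01g0060611 had 519, 333 and 203 reads and 6 elsewhere (log2 fold change 11.63 ± 0.73, edgeR adjusted p = 6.70e-08). PAV08g0383691, directly before PAV08g0383701, had 178, 47 and 213 reads and shared its low replicate 2 (log2 fold change 6.81 ± 0.74, edgeR adjusted p = 4.98e-07). On its other side PAV08g0383711 was lower on March 12, at a mean of 11.6 CPM after 72.7 CPM on February 12 (log2 fold change -2.65 ± 0.43, edgeR adjusted p = 4.63e-05). Beside GH-like_25, PAV03g0173991 was higher, with 1865, 2428 and 2073 reads (log2 fold change 2.61 ± 0.18, edgeR adjusted p = 1.46e-09), whereas PAV03g0174011 on the other side had no read in any library. GH17_39 stood beside PAV01g0026391, which was at a mean of 39.1 CPM on March 12 and 30.2 CPM on February 12 and was not called. Next to the gene with the most reads, PAV07g0351591, neither PAV07g0351581 nor PAV07g0351601 was called. Those beside PAV04g0197281 had at most 12 reads in a March 12 library. Near homeobox-3, GH-like_5 (PAV06g0284891), 2 models on, was higher on March 12 (log2 fold change 1.21 ± 0.21, edgeR adjusted p = 9.26e-05), and GH-like_6 (PAV06g0284851), 2 models before it, had 1 read in all.

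Both limits of the rule cut through a continuous range. At the lower limit on March 12, 6 of the 152 genes had a lowest count of 10, and 11 genes were left out with a lowest count of 9. At the limit elsewhere, 55 genes with at least 10 reads in each March 12 library were left out for a highest count of 2 elsewhere. One of these, PAV01g0050511, had 10678, 10105 and 11257 reads on March 12 (934 ± 121 CPM, SD, n = 3) and 3 reads elsewhere, and PAV02g0132991 had 2739, 2374 and 870 reads and 2 elsewhere. A limit on the ratio in place of the counts, chosen after seeing the data, took 265 genes whose March 12 level was at least 100-fold that of the other libraries together. It kept 131 of the 152 genes and added 134, whose median coefficient of variation was 35.6%. In those 134 genes replicate 3 was more than 2-fold low in 32 and more than 2-fold high in 27, and 4 of them were candidates.

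Gene ontology terms could be looked up for 3 of the 152 genes, all on unplaced contigs. One of them is annotated with polygalacturonase activity, an enzyme that cuts pectin once pectinesterases have acted, and with the extracellular region and cell wall organization. It had 167, 278 and 144 reads on March 12 (17.0 ± 6.09 CPM, SD, n = 3), with replicate 2 the highest. The second, 000029F_QUIVER_SUBSEQ_1-97909_OBJg0414621, carries 4 terms, among them the Golgi apparatus and O-acetyltransferase activity, and had 56, 67 and 50 reads. The model directly before this gene shares all 4 terms and was not among the 33 direct neighbours that were higher on March 12. Whether it had enough reads to be among the 154 tested neighbours is not given here, so no contrast is drawn from it. The model directly after the gene shares 3 of the terms and had 167, 158 and 148 reads on March 12 and 2 elsewhere. That model entered the test through its March 12 reads. Its call as higher than on February 12 (log2 fold change 10.51 ± 0.63) adds nothing to these reads. The third gene, with a term for metal ion binding, had 30, 18 and 46 reads.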

How the data were processed

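RNA was extracted from whole flower buds and sequenced from TruSeq stranded mRNA libraries. The authors deposited raw read counts per gene, made with Trimmomatic 0.36, STAR and HTSeq on the 'Regina' genome. The files state no normalization, and the strand setting of the counting is not given in the sources used here. Reads with several matching places are not counted by HTSeq as a rule, so near-identical copies are uncertain. Each file held 48133 genes, of which 13282 had no read in any of the 18 libraries.

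Groups were the 6 dates of the labels, with 3 replicates each. Members were found on the raw counts. Levels are CPM at TMM-normalized library sizes (mean ± SD), and tests used edgeR 4.0.16 in R 4.3.3 (filterByExpr, 1 mean per date, quasi-likelihood test, 12 residual degrees of freedom, Benjamini-Hochberg adjustment over 24743 genes). Standard errors of log2 fold changes were derived from the F statistic. Of the 152 members 32 would have passed the filter of the study's methods (a mean of 3 or more reads and no more than 75% of libraries without a read). Counts near 10 are imprecise, and ratios to the other libraries are given without an interval, since the rule bounded the reads there. Tables and plots were made with Python 3.11.15, pandas 2.3.3, scipy 1.17.1 and matplotlib 3.10.9.

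Candidates were the 585 identifiers that the study listed by annotation, 524 entries matched exactly and 63 by trailing number. RefSeq names matched 0 identifiers. Ontology terms were looked up in a copy with 1863 identifiers, all on contigs. The members, lists and tests were chosen with earlier results of these data known. The genes to be named were the candidates, the 12 members with the most reads, the 3 largest linked groups, the 3 widest and 3 narrowest in spread, the 3 lowest and those just outside a limit, and the 2 called genes with the largest log2 fold change in each of the 4 families with members (GH17, GH-like, pectinesterases and inhibitors). The lower genes of families, neighbours, and genes added by leaving out a date or named for a replicate, were picked after their values were seen. Data of 24133 genes were simulated for March 12 against February 12. There 86 of 100 genes changed 3-fold and 99 of 100 changed 6-fold were recovered, with 4 false calls. Far more genes differed in the real data, with 3792 called higher and 2397 lower of 24743. The recovery and false calls of the simulation therefore may not carry over to the real data. No recovery was given separately for genes hardly read outside March 12.

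Alternatives were other limits of the rule, the DESeq2 1.42.0 test, its size factors or upper quartile scaling, other filters, no fold threshold, fits on the compared dates alone, a replicate block, other distances and leaving out each library.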

Additional observations from a re-analysis of the deposited data

How the results depend on the processing

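Of 121 alternatives that left out no library, 105 stayed within the limits set for an unchanged value. These limits were wide. For the number of genes read on March 12 alone, 152, they took in 207 with up to 2 reads elsewhere and 113 with limits in CPM. The number of genes read on March 12 alone was 257 with at least 5 reads on March 12, 91 with at least 20, 83 with none elsewhere, 341 with up to 5 elsewhere and 265 with the ratio limit that was chosen after seeing the data. With adjusted p alone, 7514 genes were higher and 6958 lower on March 12 than on February 12, 7114 higher and 6904 lower than on October 17, and 72 neighbours, 8 GH-like genes and 17 beta glucosidases were higher and 60 candidates lower than on February 12. Without a filter on low counts 54 neighbours and 10 GH-like genes were higher, as more genes were tested. Within 1 gene model, 22 members had another member. Leaving out 1 library gave 153 to 190 members, 5 to 9 higher GH-like genes and a median coefficient of variation of 17.97% (without replicate 3) to 36.7%. The number of members could not fall, since each omission loosens the rule. Among the tested neighbours 22.1% to 26.5% were higher, against 21.4% of 154 with all libraries. These fits tested more neighbours, 162 to 170, and the share of all genes in them is not given beside these values. Deviations of same-numbered replicates of March 12 and February 12 had correlations of 0.204, -0.0269 and -0.0255. Those of March 12 and October 17 had 0.0910, 0.0633 and -0.0123. With 3 replicates per date these values cannot decide whether the numbers pair the samples. With the replicate block 3784 genes were higher and 2392 lower than on February 12, and 33 neighbours were higher. Depth limits the genes near the limits of the rule, since 1 read less would remove the 6 genes with a lowest count of 10.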
